A study of Mus musculus with 86 samples.

Results

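The 8 genes described here are Hmgcs1, Idi1, Fdps, Fdft1, Sqle, Lss, Cyp51 and Insig1, which encode 7 enzymes of cholesterol synthesis and 1 regulator of the pathway. They were chosen by name, as the listed symbols, out of 42807 genes in the count table, and all 8 were found and passed the filter on low counts in both muscles. RNA-seq was made from the soleus (SO), a leg muscle rich in slow fibres, and from the gastrocnemius (GA), where fast fibres prevail, of male C57BL/6N mice that were 10 weeks old when supplied and were then acclimated for at least 1 week. In 8 of the 9 groups of each muscle the mice were injected with the glucocorticoid drug dexamethasone (DEX), used here to make muscle waste, at 25 mg/kg a day for 10 days. Of these, 6 groups were also gavaged with Jakyak-gamcho-tang (JGT), a hot-water extract of peony root and liquorice root, at 100 or 400 mg/kg a day. JGT02, JGT03 and JGT04 held the roots at weight ratios of 2:1, 1:1 and 1:2. Another group received the polyphenol resveratrol (RSV) at 200 mg/kg, and the DEX group received buffer by gavage. The non-treated (NT) mice were given buffer by both routes and serve as the reference for DEX. Extract and resveratrol were given in a cellulose vehicle that the DEX and NT mice did not receive, so that a treatment and its vehicle cannot be told apart. The DEX and JGT04 400 mg/kg groups had 4 mice and the other groups 5, which gives 43 libraries per muscle and 86 in all, taken 1 day after the last dose. The protocol in the labels speaks of 5 groups of mice, while the samples form 9, and the labels name 1 batch.

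Cells make cholesterol from acetyl-CoA through mevalonate, isoprenoid diphosphates, squalene and lanosterol. When sterols run low in the endoplasmic reticulum, the SREBP transcription factors are carried to the Golgi, cleaved, and switch on the genes of the pathway, while the INSIG proteins hold them back. Insig1 is itself an SREBP target, so it belongs to the feedback loop that it serves. In muscle the pathway also supplies the isoprenoids for coenzyme Q and for protein prenylation.

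SREBPs act at promoters together with the factor NF-Y, and the stretches below are shown because they lie in front of members whose levels are compared later. RefSeq promoters (GRCm38.p6) were matched for Lss, Hmgcs1, Idi1, Cyp51 and Insig1. Each window holds the 250 bases before the RefSeq start and was searched on both strands for the NF-Y box CCAAT, for CACNCCAC as the core of a sterol element, and for the E-box CACGTG. Capitals mark the matches. Hmgcs1 lies at chr13:119690101-119690350 on the + strand, Insig1 at chr5:28071162-28071411 (+), Lss at chr10:76531355-76531604 (+) and Cyp51 at chr5:4104698-4104947 (-).
Hmgcs1: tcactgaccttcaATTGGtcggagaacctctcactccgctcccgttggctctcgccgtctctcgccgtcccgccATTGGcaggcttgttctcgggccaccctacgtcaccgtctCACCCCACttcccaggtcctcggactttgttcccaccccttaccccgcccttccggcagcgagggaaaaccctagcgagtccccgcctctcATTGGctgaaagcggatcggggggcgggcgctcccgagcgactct
Insig1: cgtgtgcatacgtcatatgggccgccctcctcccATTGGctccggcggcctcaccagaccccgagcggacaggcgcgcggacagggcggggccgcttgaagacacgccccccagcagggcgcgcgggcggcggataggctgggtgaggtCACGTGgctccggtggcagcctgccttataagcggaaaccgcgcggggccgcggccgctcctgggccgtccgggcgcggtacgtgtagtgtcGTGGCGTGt
Lss: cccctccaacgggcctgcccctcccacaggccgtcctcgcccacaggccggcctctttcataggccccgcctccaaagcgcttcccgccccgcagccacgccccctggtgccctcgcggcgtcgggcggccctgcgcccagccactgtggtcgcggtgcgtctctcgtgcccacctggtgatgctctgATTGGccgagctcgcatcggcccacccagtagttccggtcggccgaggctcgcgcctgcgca
Cyp51: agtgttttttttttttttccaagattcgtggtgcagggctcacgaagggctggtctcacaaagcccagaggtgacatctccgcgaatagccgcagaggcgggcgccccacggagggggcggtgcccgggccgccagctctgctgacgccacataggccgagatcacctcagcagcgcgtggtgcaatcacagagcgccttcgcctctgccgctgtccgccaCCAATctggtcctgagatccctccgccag
The NF-Y box was found in 5 of the 5 windows, Idi1 included, and in 33.8% of 32851 mouse promoters searched the same way. The sterol element core was found in 2 of them, Hmgcs1 and Insig1, against 5.29% of promoters, and the E-box in Insig1, against 6.02%. In Hmgcs1 the core lies 136 bases and the nearest NF-Y box 45 bases before the start, and in Insig1 the core lies 9 bases before it, counted from the RefSeq start. The gene positions given at the end are from GENCODE, whose starts differ, so that the windows of Lss, Idi1, Cyp51 and Insig1 run into the gene as GENCODE draws it, and the Insig1 core lies inside it. These are letter matches and not measured binding.

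Total counts per library ran over 18.8 to 34.6 M (mega counts) in SO and 22.3 to 32.1 M in GA. The tissue labels were checked on markers. The summed level of 8 slow-fibre genes was low for the label in 2 SO libraries. It was 564 CPM (counts per mega counts) in SO JGT02 400 mg/kg mouse 1 and 1380 CPM in SO JGT02 100 mg/kg mouse 5. The other SO libraries had at least 17300 CPM, and no GA library exceeded 3650 CPM. These 2 SO libraries and GA JGT02 100 mg/kg mouse 1 stood apart from the rest. Myh3, a myosin gene of embryonic fibres, was at 1030 CPM in SO JGT02 100 mg/kg mouse 5 and at 1170 CPM in the GA library, and 9 macrophage markers summed to 2850 and 2350 CPM in them. In SO JGT02 400 mg/kg mouse 1 the fast-fibre gene Mss51 was at 529 CPM, against at most 11.9 CPM in the other SO libraries. In SO JGT02 100 mg/kg mouse 5 Mss51 was at 10.1 CPM, within the SO range. The GA libraries other than GA JGT02 100 mg/kg mouse 1 had at least 60.5 CPM. Members stood apart in the pair with high Myh3 too. Sqle was at 7.18 CPM in the SO and 6.72 CPM in the GA library and Cyp51 at 12.2 and 10.8 CPM, above every other library of the muscle. Fdft1 was at 14.2 and 15.7 CPM, below every other one, as were Hmgcs1 and, narrowly, Idi1 in the GA library. Ctsb, a gene whose exons lie over those of Fdft1 on the other strand, was at 1650 and 1380 CPM, above every other library. All libraries were kept in the values below, and values without these 3 are given where they end or make a call.

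CPM are counts scaled to the library total after TMM normalization. Log2 fold changes are given with their standard error (SE), and adjusted p values are those of the edgeR quasi-likelihood test with Benjamini-Hochberg adjustment over all genes tested in the muscle. A gene is said to have risen or fallen where this p is under 0.05. Depth differs among the members: a library held 25 to 354 counts of Sqle in SO, with a median of 57, and 699 to 2597 counts of Fdft1, with a median of 1869. Scaled to exon length, the order of levels in NT mice was Fdft1, Hmgcs1, Insig1, Fdps, Idi1 and Cyp51 in both muscles. In SO, Fdft1 had 15.2 ± 2.21 and Hmgcs1 7.95 ± 0.624 CPM per kilobase (SD, n = 5). In GA the values were 16.3 ± 2.04 and 8.09 ± 0.675 CPM per kilobase. The neighbours Fdps and Idi1 overlapped in their ranges in both muscles. Sqle and Lss stood lowest, at 0.28 ± 0.0253 and 0.285 ± 0.0558 CPM per kilobase in SO and at 0.516 ± 0.0781 and 0.367 ± 0.0681 in GA. These 2 overlapped in SO and also in GA. The length used is that of all annotated exons merged, 10787 bases for Lss and 3093 (Insig1) to 5546 (Sqle) for the other members. The closeness of Lss to Sqle depends on it, since in unscaled CPM Lss lay above Sqle in every SO NT mouse.

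The comparison of DEX with NT asks what the injections changed in each muscle. Of the 8 genes, 4 rose with DEX in the soleus and none fell: Sqle, Lss, Cyp51 and Fdps. Of all 14811 genes tested there 11.3% rose and 20.8% changed in either direction. The median log2 fold change was 0.531 over the 8 members and 0.0467 over all genes. Among the 8, the larger differences were in Sqle, Lss and Cyp51, which work on squalene and lanosterol, while Hmgcs1 did not pass. Acat2, an enzyme before Hmgcs1 in the pathway and outside the 8, also rose, as given later.

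Early in the pathway, Hmgcs1 encodes the cytosolic synthase that makes HMG-CoA. It was at 49.0, 31.3, 42.2 and 29.9 CPM in SO DEX mice 1 to 4, against 36.3, 36.7, 34.1, 34.4 and 41.2 CPM in SO NT mice 1 to 5. DEX mice 1 and 3 lay above all NT mice and DEX mice 2 and 4 below all of them (log2 0.06 ± 0.14, adjusted p = 0.785). Idi1, the isomerase that readies the isoprenoid building blocks, was at 13.8, 9.24, 11.7 and 10.8 CPM in DEX mice and at 9.15, 8.51, 8.58, 8.34 and 10.7 CPM in NT mice. DEX mouse 2 lay within the NT range and the other DEX mice above it (log2 0.33 ± 0.16, adjusted p = 0.134). Fdps, which makes farnesyl diphosphate, the branch point to sterols and prenyl groups, was at 17.6, 13.3, 14.1 and 12.7 CPM in DEX mice and at 12.1, 12.0, 12.0, 10.0 and 13.5 CPM in NT mice. The groups overlapped, since DEX mice 2 and 4 lay below the highest NT mouse, and Fdps rose by a small step (log2 0.28 ± 0.09, adjusted p = 0.0271). This call was lost without DEX mouse 1 (0.18, adjusted p = 0.155), NT mouse 4 (0.21, adjusted p = 0.112) or NT mouse 2 (0.26, adjusted p = 0.0513), with no filter on low counts (adjusted p = 0.0686) and in a fit of the DEX and NT groups alone (adjusted p = 0.0833).

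Fdft1, squalene synthase, commits farnesyl diphosphate to sterols and went the other way from the rest. It was at 52.2, 55.1, 52.2 and 37.2 CPM in SO DEX mice, against 61.7, 61.2, 57.6, 80.8 and 60.5 CPM in SO NT mice. All 4 DEX mice lay below all 5 NT mice, with DEX mouse 4 lowest and NT mouse 4 highest. The test did not pass with all libraries (log2 -0.39 ± 0.21, adjusted p = 0.193) and passed without the 3 libraries that stood apart (-0.38 ± 0.11, adjusted p = 0.00571). Over all 17 alternatives the adjusted p ran over 0.00571 to 0.472. Fdft1 also shares 17.6% of its 31-base words with Ctsb, a cathepsin gene on the other strand whose exons lie over its own, and whether reads were counted by strand is not given in the sources used here. Ctsb itself differed by log2 -0.03 ± 0.32 (adjusted p = 0.962), in a fit that kept SO JGT02 100 mg/kg mouse 5, where Ctsb was at 1650 CPM.

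Sqle, squalene epoxidase, carries out the first oxygenation of the sterol branch and a rate-limiting step of it. Sqle was at 5.38, 1.95, 4.12 and 4.16 CPM in SO DEX mice, against 1.63, 1.44, 1.57, 1.39 and 1.73 CPM in SO NT mice. It rose 2.51-fold, the largest change among the 8, and DEX mouse 2 lay just above the NT range while the other DEX mice were well above it (log2 1.33 ± 0.36, adjusted p = 0.00813). Lss, lanosterol synthase, which closes the sterol rings, was at 6.9, 5.06, 4.19 and 5.63 CPM in DEX mice and at 3.36, 3.25, 3.81, 2.27 and 2.69 CPM in NT mice. The groups did not overlap and Lss rose 1.77-fold (log2 0.82 ± 0.18, adjusted p = 0.00152), with a call that held under each of 17 alternatives. These include a term for sets of libraries, described later, which could hardly move it because DEX and NT share a set. Cyp51, the cytochrome P450 enzyme that demethylates lanosterol, was at 11.4, 6.51, 10.7 and 6.3 CPM in DEX mice and at 4.06, 4.77, 5.2, 5.45 and 5.79 CPM in NT mice. Cyp51 rose 1.73-fold with no overlap, and DEX mice 1 and 3 were the highest (log2 0.79 ± 0.22, adjusted p = 0.00988).

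Insig1, the regulator, was at 25.3, 16.4, 22.0 and 15.0 CPM in SO DEX mice, against 10.0, 12.1, 11.8, 13.7 and 11.8 CPM in SO NT mice. All DEX mice lay above all NT mice, yet the test did not pass with all libraries (log2 0.73 ± 0.28, adjusted p = 0.0586). It passed with DESeq2 (adjusted p = 0.0443), without the 3 libraries that stood apart (adjusted p = 0.0274) and in a fit of the DEX and NT groups alone (adjusted p = 0.00672). Over its 17 alternatives the adjusted p ran over 0.00672 to 0.467.

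**Figure D1:**
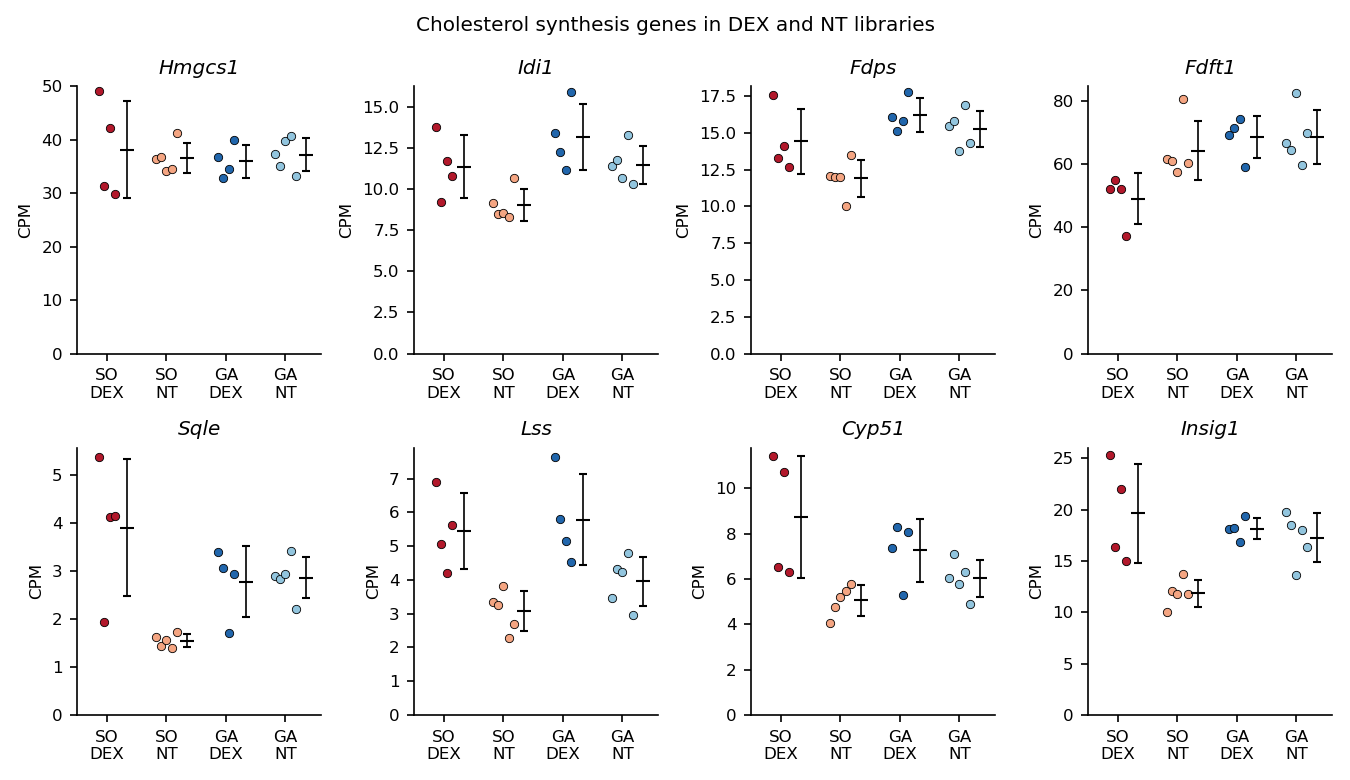
Level of each of the 8 genes in CPM (vertical axis, own scale per gene) in every DEX and NT library of SO and GA; points are mice and bars are the mean ± SD. In SO the DEX points of Sqle, Lss, Cyp51 and Insig1 lie above all NT points and those of Fdft1 below them, while in GA the DEX and NT points of every gene overlap. The share of all genes without overlap was not counted, here or for the other comparisons.

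The SO DEX mice were not alike in their other cell types. The 14 Schwann cell markers, genes of the glia around nerve fibres, summed to 935, 176, 798 and 114 CPM in SO DEX mice 1 to 4, against 216, 126, 126, 133 and 173 CPM in SO NT mice 1 to 5. All 14 rose (median log2 1.75), none of them is at 0 in all libraries, and mice 1 and 3, where the sum was high, were also the 2 highest for Hmgcs1, Idi1, Fdps, Cyp51 and Insig1. Without these mice Lss still rose (log2 0.79 ± 0.21, adjusted p = 0.0117), while Sqle (0.97, adjusted p = 0.123), Cyp51 (0.33, adjusted p = 0.392) and Fdps (0.11, adjusted p = 0.487) did not pass. Leaving them out was chosen after the data were seen and leaves 2 DEX mice in the group. Adipocyte markers rose in 8 of 12 genes, with sums of 1190, 928, 1180 and 446 CPM in DEX mice 1 to 4 and 405 to 625 CPM in NT mice. Mice 1 and 3 were highest in this sum too, so leaving them out does not separate Schwann from adipocyte content. Macrophage markers passed in 0 of 9 genes by the edgeR test (2 at an unadjusted p under 0.05), but their sum was 375 CPM in DEX mouse 4, against 42.9 to 70.1 CPM in the other DEX mice and 34.5 to 80.9 CPM in NT mice, and this mouse had the lowest Fdft1. Endothelial markers rose in 5 of 10. The part of these cell types in the members' levels was not tested otherwise. In bulk muscle, fewer cells of a type and less RNA per cell cannot be told apart.

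**Figure D2:**
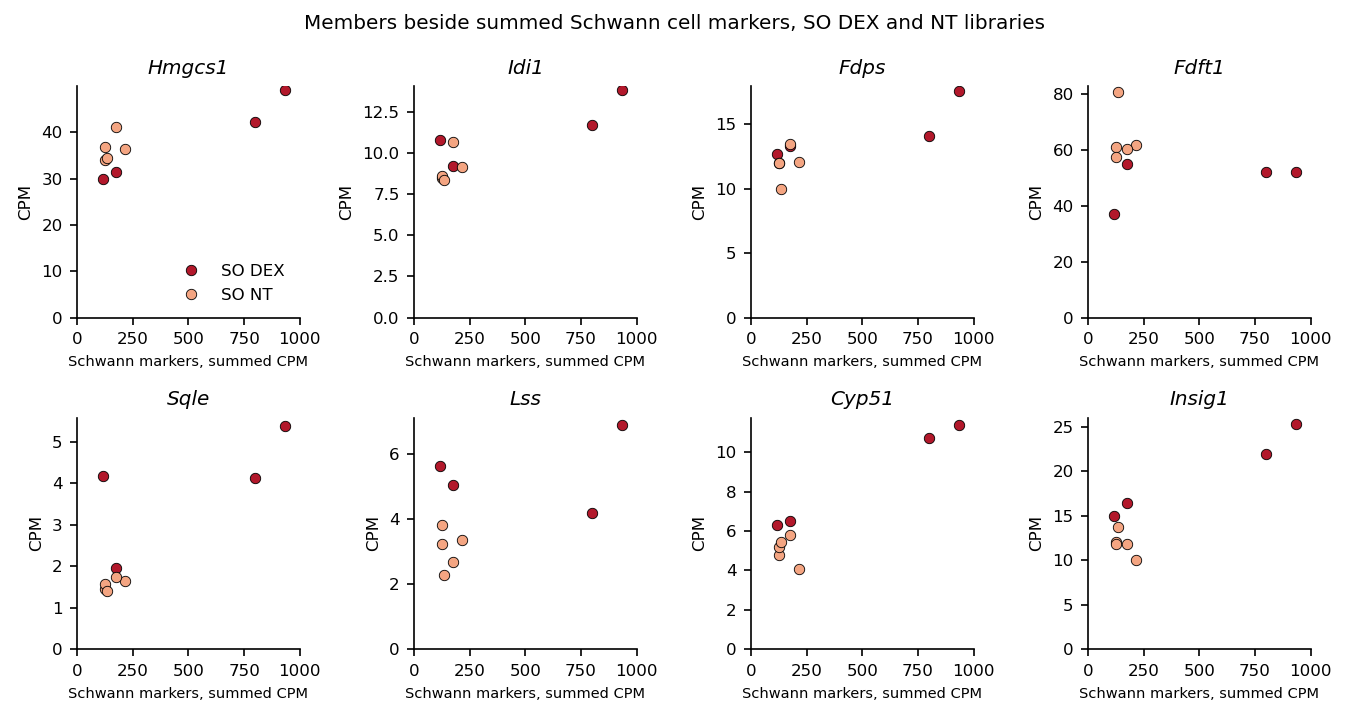
Level of each of the 8 genes in CPM (vertical axis) against the summed level of 14 Schwann cell markers in CPM (horizontal axis) in the 4 DEX and 5 NT libraries of SO. DEX mice 1 and 3, at 935 and 798 CPM on the horizontal axis, stand apart from the other 7 libraries, and DEX mouse 4, at 114 CPM, has Sqle at 4.16 CPM.

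When the mean of all 8 DEX-injected groups of SO was set against NT, 5 of the 8 rose, against 9.05% of all genes that rose and 17.8% that changed. Insig1 rose most (log2 0.93 ± 0.22, adjusted p = 0.00228), at 22.8 ± 7.47 CPM in 38 DEX-injected mice and 11.9 ± 1.29 CPM in 5 NT mice. Lss rose by log2 0.58 ± 0.13 (adjusted p = 0.00193), Cyp51 by 0.59 ± 0.16 (adjusted p = 0.00981) and Fdps by 0.28 ± 0.07 (adjusted p = 0.00231). Sqle passed narrowly (0.76 ± 0.27, adjusted p = 0.0466), and the call was lost in 24 of the fits that left out 1 library, those without each of the 5 NT mice included (adjusted p over all alternatives 0.0186 to 0.119). It was also lost with no filter on low counts (adjusted p = 0.0773) and without SO DEX mice 1 and 3 (0.71, adjusted p = 0.0675), where Hmgcs1 fell (-0.25, adjusted p = 0.0408). The call of Cyp51 was lost without NT mouse 1 (adjusted p = 0.0502). With a term for 3 sets of libraries described later, Sqle (1.22, adjusted p = 0.0951), Cyp51 (0.78, adjusted p = 0.0746) and Fdps (0.35, adjusted p = 0.0528) did not pass, while Insig1 and Lss did. Hmgcs1 (-0.21 ± 0.10, adjusted p = 0.139), Idi1 (0.05) and Fdft1 (0.09) did not pass. This comparison shares the DEX and NT libraries with the one above and does not repeat it independently. Schwann markers rose in 2 of 14 genes here, endothelial markers in 1 of 10 and adipocyte markers in 8 of 12. The summed adipocyte level had a median of 930 CPM (280 to 1780) in the 38 DEX-injected mice and 485 CPM (405 to 625) in the NT mice, and its part in the members' levels was not tested.

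In the gastrocnemius 1 of the 8, Lss, rose, where 8.38% of the 14484 genes tested changed in either direction and 4.31% of all tested rose. The median log2 fold change was 0.0631 over the members and -0.0126 over all genes. Lss was at 7.65, 5.8, 5.15 and 4.52 CPM in GA DEX mice, against 3.47, 4.33, 4.23, 4.8 and 2.96 CPM in GA NT mice. DEX mouse 4 lay below the highest NT mouse and the other DEX mice above all of them, with a 1.45-fold difference (log2 0.53 ± 0.16, adjusted p = 0.0283). The call was lost without DEX mouse 1 (0.37, adjusted p = 0.195), DEX mouse 2 (adjusted p = 0.0637), NT mouse 1 (adjusted p = 0.0769) or NT mouse 5 (adjusted p = 0.0941), and with no filter on low counts (adjusted p = 0.0519). Over 16 alternatives its adjusted p ran over 0.00759 to 0.195.

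The other members differed little in GA. Cyp51 was at 7.36, 8.31, 5.27 and 8.09 CPM in GA DEX mice and at 6.03, 7.09, 5.78, 6.31 and 4.89 CPM in GA NT mice (log2 0.26 ± 0.15, adjusted p = 0.352). Idi1 differed by 0.18 ± 0.09 (adjusted p = 0.231). Sqle was at 3.4, 3.06, 1.72 and 2.95 CPM in DEX mice and at 2.89, 2.83, 2.94, 3.43 and 2.22 CPM in NT mice. DEX mouse 3 lay below all NT mice and the other DEX mice within their range. Hmgcs1, Fdps, Fdft1 and Insig1 lay within 0.07 of 0 on the log2 scale. With all 8 DEX-injected groups, 2 of 8 rose, where 10.3% of all genes rose and 21.2% changed. These were Lss (0.59 ± 0.12, adjusted p = 0.000267) and Insig1 (0.37 ± 0.12, adjusted p = 0.0232), at 22.7 ± 4.98 CPM in 38 DEX-injected mice and 17.3 ± 2.4 CPM in 5 NT mice. Lss kept its call in all 49 alternatives there, and Insig1 lost it without NT mouse 3 (adjusted p = 0.117) or NT mouse 5 (adjusted p = 0.0627). Without GA JGT02 100 mg/kg mouse 1, Cyp51 (0.24, adjusted p = 0.0417) and Fdft1 (0.12, adjusted p = 0.046) also rose. In the same 8 groups adipocyte markers rose in 9 of 12 genes and fell in 1, with a median sum of 455 CPM (278 to 705) in DEX-injected mice and 382 CPM (320 to 411) in NT mice. Endothelial markers fell in 9 of 10 genes, with a median sum of 296 CPM (223 to 348) in DEX-injected mice and 393 CPM (380 to 402) in NT mice. The part of these cell types was not tested. In GA, 0 of 14 Schwann markers passed the edgeR test between DEX and NT (1 at an unadjusted p under 0.05), and adipocyte markers rose in 7 of 12, with sums of 420 to 520 CPM in DEX mice and 320 to 411 CPM in NT mice.

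The change with DEX was larger in SO than in GA for Sqle by the test of the difference itself, a log2 difference of 1.36 ± 0.45 (adjusted p = 0.045). This was 1 of 8 members, where 8.36% of 15327 genes differed. The call was narrow: it was lost in 15 of the 18 fits that left out 1 library, with the animal as a replicate block (1.32, adjusted p = 0.111) and without SO DEX mice 1 and 3 (1.02, adjusted p = 0.214). Its adjusted p over 25 alternatives ran over 0.00262 to 0.214. For Cyp51 (0.52 ± 0.26, adjusted p = 0.213), Insig1 (0.65 ± 0.33, adjusted p = 0.206) and Lss (0.27 ± 0.24, adjusted p = 0.49) the difference between muscles did not pass. Fdft1 differed by -0.39 ± 0.30 (adjusted p = 0.429) with all libraries and by -0.42 without the 3 that stood apart (adjusted p = 0.0112). Schwann markers differed in 13 of 14 genes in the same contrast, and their part was not tested.

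The muscles also differed before any injection. In NT mice 4 members were lower in SO than in GA, where 23.4% of all genes were lower and 45.8% differed in either direction. Sqle was at 1.55 ± 0.14 CPM in SO and 2.86 ± 0.433 CPM in GA (log2 -0.88 ± 0.31, adjusted p = 0.0141). Insig1 was at 11.9 ± 1.29 CPM in SO and 17.3 ± 2.4 CPM in GA (-0.54 ± 0.22, adjusted p = 0.0403). Fdps (-0.36 ± 0.07, adjusted p = 3.78e-05) and Idi1 (-0.35 ± 0.13, adjusted p = 0.018) were lower too. Insig1 lost its call with the animal as a block (adjusted p = 0.0906) and in 7 of 10 fits that left out 1 library, and Idi1 lost it without GA NT mouse 4 (-0.28, adjusted p = 0.0686). In the 8 DEX-injected groups Idi1 (-0.44 ± 0.05, adjusted p = 6.89e-14), Lss (-0.38 ± 0.06, adjusted p = 2.21e-08), Hmgcs1 (-0.21 ± 0.04, adjusted p = 9.74e-07) and Fdps (-0.09 ± 0.03, adjusted p = 0.00143) were lower in SO, where 82.2% of all genes differed and 37.4% were lower. Sqle differed there by 0.08 ± 0.11 (adjusted p = 0.521). Without the 3 libraries that stood apart Fdft1 was lower in SO as well (-0.11, adjusted p = 0.00133).

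In the listed order of the libraries, earlier results of these data put breaks inside GA JGT04 100 mg/kg and inside SO JGT02 400 mg/kg, which divide the 86 libraries into 3 sets that the labels do not name. DEX and NT of a muscle lie in 1 set, whereas SO NT and GA NT lie in different sets, as do SO DEX and the SO groups of JGT03, JGT04 and RSV. With a term for the set, none of the members passed between the muscles, in NT mice or in DEX-injected mice. Of 15327 genes, 3477 still passed in NT mice and 4739 in DEX-injected mice with this term. The step from set 1 to set 2 rests on the GA JGT04 100 mg/kg mice, 3 in set 1 and 2 in set 2. Muscle and set are therefore only weakly separated.

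The treatments were compared with DEX alone to ask what they changed in injected mice. The 7 comparisons of a muscle share the same 4 DEX libraries, so their results are given side by side and are not repeats of each other. In SO, resveratrol changed 3 of the 8, with Hmgcs1 and Idi1 lower and Fdft1 higher than with DEX alone, where 12.7% of all genes changed, 7.56% downward and 5.11% upward. Hmgcs1 was at 25.1, 32.5, 24.4, 26.1 and 25.3 CPM in SO RSV mice, against 49.0, 31.3, 42.2 and 29.9 CPM in SO DEX mice. RSV mouse 2 lay above DEX mice 2 and 4 and the other RSV mice below all DEX mice (log2 -0.51 ± 0.14, adjusted p = 0.0126). Idi1 was at 6.63, 10.2, 6.45, 8.41 and 7.21 CPM in RSV mice and at 13.8, 9.24, 11.7 and 10.8 CPM in DEX mice (-0.55 ± 0.16, adjusted p = 0.0224). Again RSV mouse 2 overlapped the DEX range. Sqle (-0.91 ± 0.35, adjusted p = 0.0774), Lss (-0.36 ± 0.18, adjusted p = 0.169) and Cyp51 (-0.33 ± 0.22, adjusted p = 0.314) were lower on average and did not pass. Insig1 (0.21) and Fdps (0.09) did not pass either.

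The calls of Hmgcs1 and Idi1 depend on DEX mice 1 and 3, which had the highest Schwann and adipocyte sums of the DEX group. Without SO DEX mice 1 and 3, Hmgcs1 differed by -0.19 (adjusted p = 0.466) and Idi1 by -0.36 (adjusted p = 0.25), while Fdft1 still rose (0.87, adjusted p = 0.0493). Without DEX mouse 1 alone neither Hmgcs1 (-0.36, adjusted p = 0.0777) nor Idi1 (-0.44, adjusted p = 0.0834) passed, and Idi1 was also lost without DEX mouse 3 (adjusted p = 0.0505), RSV mouse 1 (adjusted p = 0.0629) or RSV mouse 3 (adjusted p = 0.0644). Sqle fell without DEX mouse 2 (-1.12, adjusted p = 0.0341), without the 3 libraries that stood apart (-0.91, adjusted p = 0.0146) and in a fit of RSV and DEX alone (-0.92, adjusted p = 0.0485). With the set term, Hmgcs1 differed by -0.04 (adjusted p = 0.98), Idi1 by -0.08 (adjusted p = 0.967) and Fdft1 by 0.58 (adjusted p = 0.705), in a fit that called 3 genes in all. The set difference rests on the SO JGT02 400 mg/kg mice, 3 in the earlier set and 2 in the later. Mouse 1 of this group, a library that stood apart with low slow-fibre markers, is in the earlier set. The set term was not fitted without it. Schwann sums were 142 to 273 CPM in RSV mice, and 3 of 14 markers fell against DEX.

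**Figure D3:**
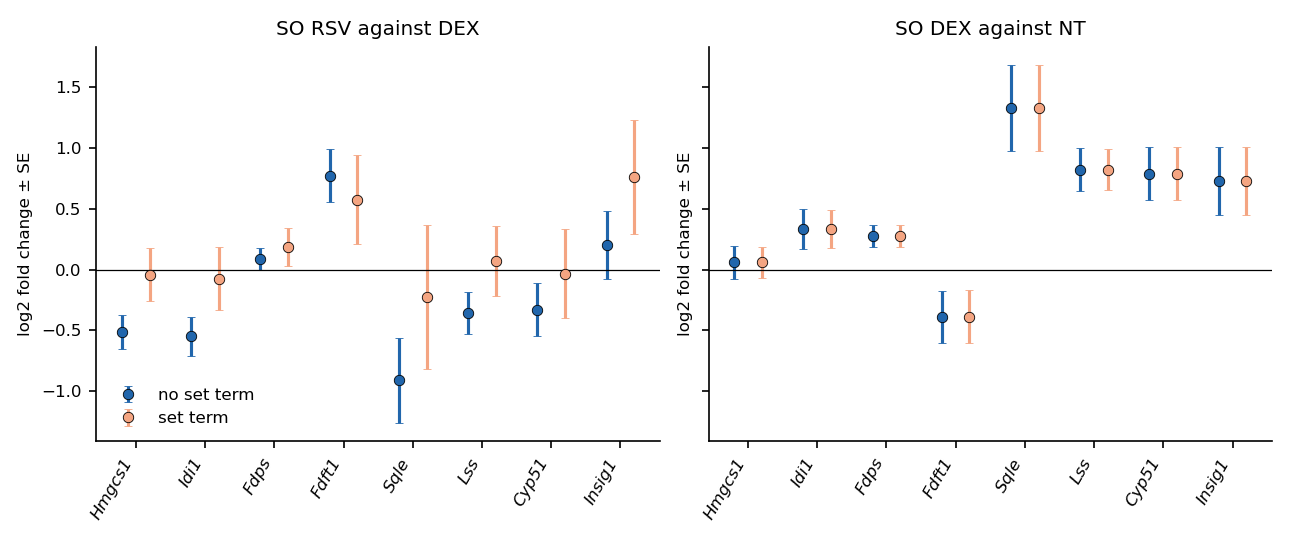
Log2 fold change ± SE (vertical axis) of the 8 genes (horizontal axis) in SO for RSV against DEX and for DEX against NT, with and without a term for the set of libraries. DEX and NT lie in the same set, so the term could hardly move DEX against NT. In RSV against DEX it moves Hmgcs1 to -0.04, with Fdft1 at 0.58.

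Fdft1 was higher than DEX in each of the 7 treated groups on average, and 3 of the 7 passed. It was at 90.2, 80.4, 87.8, 84.7 and 77.0 CPM with RSV, against 52.2, 55.1, 52.2 and 37.2 CPM with DEX (log2 0.77 ± 0.22, adjusted p = 0.0164). With JGT04 100 mg/kg it was at 71.6, 73.4, 76.8, 84.2 and 82.2 CPM (0.66 ± 0.22, adjusted p = 0.0482), the 1 member of 8 to pass there with all libraries, where 8.95% of all genes changed. Without the 3 libraries that stood apart, Hmgcs1 (-0.37, adjusted p = 0.0339), Sqle (-0.86, adjusted p = 0.0222) and Idi1 (-0.48, adjusted p = 0.0175) fell there too, and DESeq2 called Idi1 lower (adjusted p = 0.0457). Hmgcs1 (-0.44, adjusted p = 0.046) and Idi1 (-0.55, adjusted p = 0.0343) also fell without DEX mouse 2, and Idi1 without JGT04 100 mg/kg mouse 2 (-0.57, adjusted p = 0.0306). With JGT02 400 mg/kg it was at 88.3, 68.8, 55.0, 80.1 and 82.3 CPM (0.61 ± 0.22, adjusted p = 0.0467), again the 1 member to pass, where 17.1% of all genes changed. All mice of RSV, JGT03, JGT04 lay above all DEX mice, and JGT02 400 mg/kg mouse 3 fell inside the DEX range. With JGT04 400 mg/kg the 4 mice were at 84.2, 82.4, 81.8 and 78.2 CPM, close together, and the test gave 0.73 ± 0.23 (adjusted p = 0.0531), with 0.0314 by DESeq2, 0.0494 in a fit of the groups compared alone and 7.08e-05 without the 3 libraries that stood apart. JGT03 at 400 mg/kg (0.50, adjusted p = 0.171) and 100 mg/kg (0.41, adjusted p = 0.236) and JGT02 at 100 mg/kg (0.11, adjusted p = 0.807) did not pass. In these 4 comparisons, JGT04 400, JGT03 400, JGT03 100 and JGT02 100 mg/kg, 0 of the 8 members passed by edgeR, where 4.58%, 3.06%, 8.49% and 8.82% of all genes did, and DESeq2 called 1, Fdft1 in JGT04 400 mg/kg. At an unadjusted p under 0.05 there were 2, 4, 0 and 1 members. The mean of Fdft1 was 64.4 ± 9.33 CPM in SO NT mice. Without the 3 libraries that stood apart, Fdft1 passed in all 7 comparisons, Sqle fell with JGT02 100 mg/kg (-0.79, adjusted p = 0.0428) and Hmgcs1 with JGT03 400 mg/kg (-0.39, adjusted p = 0.0274).

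The Fdft1 calls were fragile in single libraries. DEX mouse 4, with 37.2 CPM, was the lowest DEX library. Without it Fdft1 gave 0.66 with RSV (adjusted p = 0.0862), 0.54 with JGT04 100 mg/kg (adjusted p = 0.211) and 0.49 with JGT02 400 mg/kg (adjusted p = 0.18). The call in JGT04 100 mg/kg was lost in 8 of 9 fits that left out 1 library, and that in JGT02 400 mg/kg in 7 of 9, among them those without each of the 4 DEX mice. Among these fits for RSV it was lost in the one without DEX mouse 4. The set term ended the calls in JGT04 100 mg/kg (0.46, adjusted p = 0.716, in a fit that called 4 genes in all) and JGT02 400 mg/kg (0.53, adjusted p = 0.144), as it did for RSV. With no filter on low counts the adjusted p was 0.0829 and 0.0753 for these 2 extract groups, without SO DEX mice 1 and 3 it was 0.101 and 0.0934, with DESeq2 size factors it was 0.0515 for JGT04 100 mg/kg, and in a fit of the groups compared alone it was 0.0596 for JGT02 400 mg/kg. Macrophage markers, 9 genes that summed to 375 CPM in DEX mouse 4, summed to 29.3 to 64.7 CPM in RSV mice, and their part was not tested.

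Over the mean of the 6 extract groups of SO, 0 of the 8 passed by the edgeR test, where 13.9% of all genes changed. At an unadjusted p under 0.05 there were 4, Fdft1 (0.50 ± 0.18, adjusted p = 0.0518), Hmgcs1 (-0.27 ± 0.11, adjusted p = 0.0903), Sqle (-0.61 ± 0.27, adjusted p = 0.125) and Idi1 (-0.28 ± 0.13, adjusted p = 0.13), and DESeq2 called 1, Fdft1 (adjusted p = 0.0316). Without the 3 libraries that stood apart all 4 passed, Fdft1 upward (adjusted p = 3.13e-05) and Hmgcs1, Sqle and Idi1 downward (adjusted p = 0.0325, 0.0104 and 0.0373). Without SO JGT02 100 mg/kg mouse 5 alone, which had Fdft1 at 14.2 CPM and Sqle at 7.18 CPM, the adjusted p of Fdft1 was 3.97e-05, that of Sqle 0.0124 and that of Hmgcs1 0.0425. Hmgcs1 (-0.35, adjusted p = 0.0414) and Sqle (-0.83, adjusted p = 0.0488) also passed without DEX mouse 2, and Hmgcs1 passed without DEX mouse 4 (-0.37, adjusted p = 0.0465) or JGT03 100 mg/kg mouse 3 (adjusted p = 0.0499). Fdft1 passed without JGT02 400 mg/kg mouse 3 (adjusted p = 0.0415), JGT03 400 mg/kg mouse 1 (adjusted p = 0.0464), JGT03 100 mg/kg mouse 5 or JGT04 100 mg/kg mouse 2 (adjusted p = 0.0499 each). Schwann markers fell in 13 of 14 genes in the same comparison and endothelial markers in 7 of 10, and their part was not tested. Without SO DEX mice 1 and 3, Hmgcs1 stood at 0.05, Sqle at -0.26 and Idi1 at -0.10 and none passed.

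**Figure D4:**
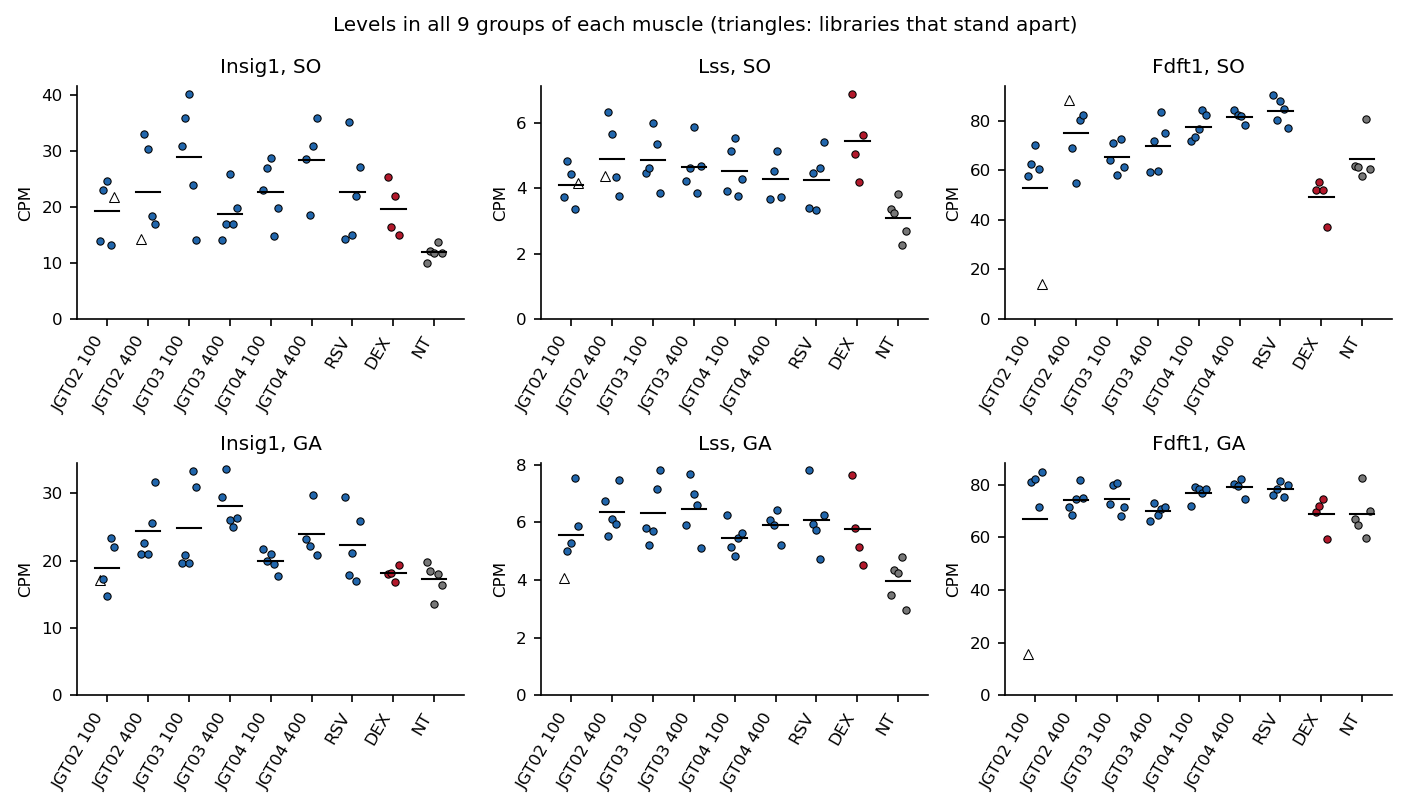
Level of Insig1, Lss and Fdft1 in CPM (vertical axis) in every library of the 9 groups of SO and of GA; points are mice, lines are group means and triangles are the 3 libraries that stood apart. Fdft1 in SO is lowest in the DEX group apart from the triangle at 14.2 CPM, and Lss is lower in NT than in the DEX-injected groups on average in both muscles.

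In GA none of the 8 genes passed in any of the 7 treatments, over the 6 extract groups, or between 400 and 100 mg/kg by the edgeR test, and 0 or 1 had an unadjusted p under 0.05 in each. DESeq2 called 1, Insig1 with JGT03 400 mg/kg. The share of all genes called was 10.2% with JGT02 100 mg/kg, 0.808% with JGT02 400, 0.0207% with JGT03 100, 0.677% with JGT03 400, 1.38% with JGT04 100 and 2.04% with JGT04 400 mg/kg, 1.37% with RSV and 1.26% over the 6 extract groups. These shares turn on 1 library, GA JGT02 100 mg/kg mouse 1. Without it the number of genes called was 139, against 1478 with it, for JGT02 100 mg/kg, while it was 823 against 117 for JGT02 400 mg/kg, 1350 against 200 for JGT04 100 mg/kg and 1367 against 199 for RSV. Without that library Fdft1 rose with JGT04 400 mg/kg (0.21, adjusted p = 0.0469). Insig1 came nearest. It was at 29.5, 33.6, 26.1, 25.0 and 26.4 CPM with JGT03 400 mg/kg, against 18.1, 18.2, 16.9 and 19.4 CPM with DEX. All treated mice lay above all DEX mice (log2 0.64 ± 0.16, adjusted p = 0.051), with an adjusted p of 0.0154 by DESeq2, 0.0102 without the 3 libraries that stood apart and 0.00185 in a fit of these groups alone, and a range of 0.00185 to 0.177 over 16 alternatives.

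Insig1 was also above all DEX mice in each mouse of JGT02 400 mg/kg (21.0, 22.6, 21.0, 25.6 and 31.7 CPM), JGT03 100 mg/kg (19.6 to 33.3 CPM) and JGT04 400 mg/kg (23.3, 22.2, 29.8 and 20.9 CPM). Their log2 differences were 0.43 ± 0.16, 0.45 ± 0.16 and 0.41 ± 0.17, and none passed (adjusted p = 0.31, 0.667 and 0.27). In a fit of the groups compared alone Insig1 rose with JGT04 400 mg/kg (adjusted p = 0.0318). Over the 6 extract groups Insig1 differed by 0.36 ± 0.13 (adjusted p = 0.202), and between the doses of 400 and 100 mg/kg by 0.26 ± 0.09 (adjusted p = 0.2), with 0.2% of all genes called between the doses. The other 7 members ran over -0.14 (Sqle) to 0.10 (Fdft1) on the log2 scale over the 6 extract groups. Between the doses in SO, 0 of the 8 passed by edgeR or DESeq2 and 0 had an unadjusted p under 0.05, and 0% of all genes passed there. The 3 extracts differ in the ratio of the roots, and the values above are side by side at each dose. No pair of extracts was tested against each other.

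**Figure D5:**
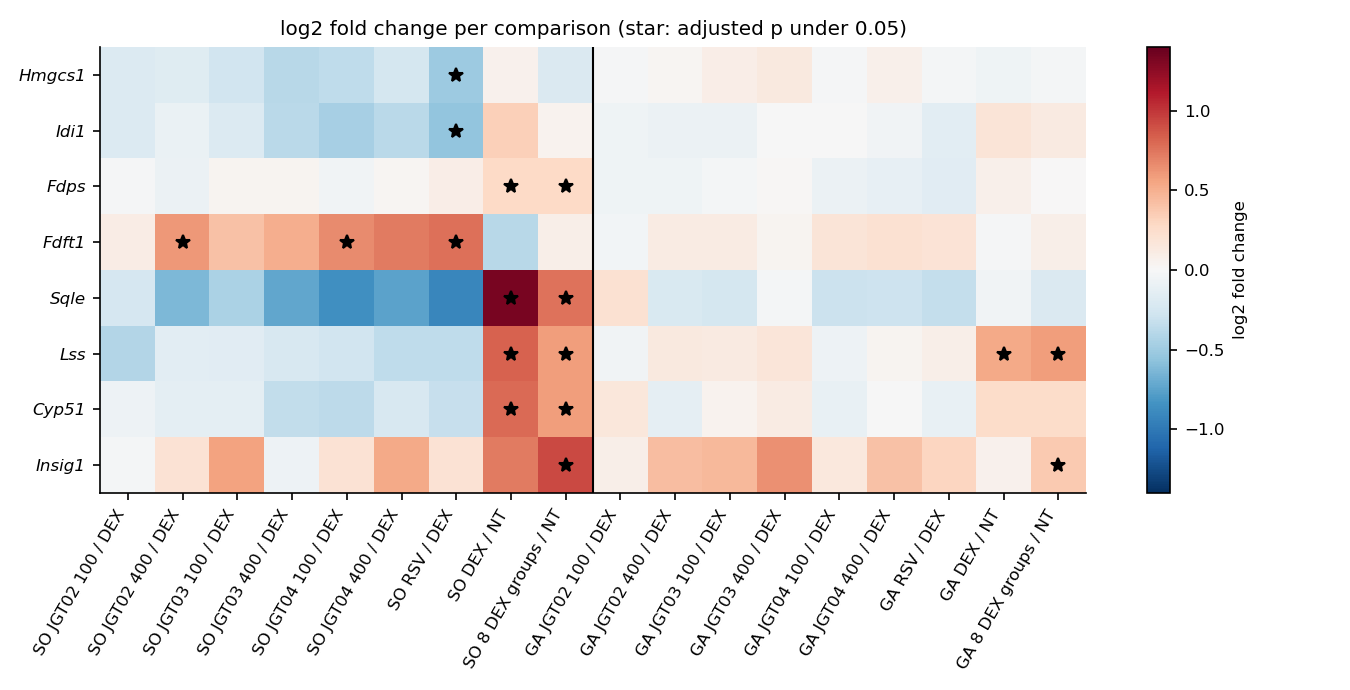
Log2 fold changes (colour scale) of the 8 genes (vertical axis) in 18 comparisons (horizontal axis), 9 for SO and 9 for GA; stars mark an adjusted p under 0.05 by the edgeR test. Stars lie on Lss in DEX against NT in both muscles, on Sqle, Cyp51 and Fdps in SO, on Insig1 in the 8 DEX-injected groups of both muscles, and on Fdft1, Hmgcs1 and Idi1 in treatments of SO.

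The rest of the pathway was read from lists chosen with earlier results of these data known. Of 15 other enzymes of cholesterol synthesis 3 rose and none fell with DEX in SO, and the median was 0.252. Of all genes 11.3% rose and 20.8% changed there. Acat2, the cytosolic thiolase that makes acetoacetyl-CoA, rose by log2 1.05 ± 0.22 (adjusted p = 0.00137), and Msmo1, a methylsterol oxidase, by 0.71 ± 0.19 (adjusted p = 0.00915). Tm7sf2, a sterol reductase, averaged under 5 CPM and is named because the count is small (0.47 ± 0.17, adjusted p = 0.0496). In GA 1 rose, Acat2 (0.59 ± 0.14, adjusted p = 0.00606), and 1 fell, mevalonate kinase Mvk (-0.33 ± 0.09, adjusted p = 0.0193), and the median was -0.0235. Of all genes 4.31% rose and 8.38% changed in GA.

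Among 6 genes of sterol sensing, Srebf1, the SREBP gene linked mainly to fatty acid synthesis, rose with DEX in SO (0.61 ± 0.21, adjusted p = 0.0369) and in GA (0.75 ± 0.21, adjusted p = 0.022). Srebf2, the one linked mainly to cholesterol synthesis, did not pass in SO (0.51 ± 0.22, adjusted p = 0.0891) or GA (-0.08 ± 0.23, adjusted p = 0.898). Insig2, the other INSIG gene, fell in SO (-0.47 ± 0.14, adjusted p = 0.0157), where Insig1 was higher on average.

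Fatty acid synthesis genes, the other arm of SREBP targets, rose in 7 of 11 with DEX in SO and in 3 of 11 in GA. The share of all genes that rose was 11.3% in SO and 4.31% in GA. Fasn, fatty acid synthase, rose by log2 2.43 ± 0.53 in SO (adjusted p = 0.00167) and by 1.42 ± 0.35 in GA (adjusted p = 0.00717), both more than any member in the same comparison. The desaturase gene Scd1 rose by 1.92 ± 0.56 (adjusted p = 0.0148) and 1.10 ± 0.31 (adjusted p = 0.0199) in SO and GA. Fatty acid synthesis is also active in adipocytes, most of whose markers rose in both muscles, and their part was not tested. Of 8 LXR targets and efflux genes 2 rose in each muscle, and of 9 genes of the isoprenoid branch 2 fell in SO and 0 passed in GA by the edgeR test (1 at an unadjusted p under 0.05). The share of all genes that changed in either direction was 20.8% in SO and 8.38% in GA.

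The genes whose pattern was most like the members were ranked by Spearman correlation with the mean of the 8 scaled levels over the 43 libraries of a muscle, which share the groups and the set structure. In SO, among 8768 genes, Scd2 (0.92), Fads1 (0.836), Acly (0.833), Apmap (0.792), Fasn (0.789) and Epb4.1l2 (0.78) led. In GA, among 8593 genes, Pnpla3 (0.803), Thrsp (0.777), Agpat2 (0.743), Acss2 (0.732), Scd2 (0.732) and Nsdhl (0.714) led. Nsdhl is an enzyme of cholesterol synthesis. With group means subtracted, Pcx, Aacs and Pnpla3 took the places of Apmap, Fasn and Epb4.1l2 among the first 6 in SO, and Sc5d that of Nsdhl in GA, where Nsdhl ranked 37 (0.482). Without the libraries that stood apart, Slc25a1 and Aacs took the places of Apmap and Epb4.1l2, and Pgd that of Nsdhl, which ranked 10. Among the members, the correlation with the mean of the other 7 lay between 0.403 (Fdps) and 0.844 (Sqle) in SO and between 0.398 (Sqle) and 0.731 (Insig1) in GA, apart from Fdft1, which stood at -0.337 in SO and -0.423 in GA. Hmgcs1 stood at 0.413 in SO and at 0.834 with group means subtracted.

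The members lie on GRCm38 (GENCODE vM21) as follows: Hmgcs1 on chromosome 13 (119690379 to 119708260, + strand) and Idi1 on chromosome 13 (8885501 to 8892451, +), with Fdps on chromosome 3 (89093588 to 89101959, -) and Fdft1 on chromosome 14 (63145150 to 63179578, -). Sqle lies on chromosome 15 (59315077 to 59331192, +), Lss on chromosome 10 (76531588 to 76557138, +), Cyp51 on chromosome 5 (4081145 to 4104746, -) and Insig1 on chromosome 5 (28071363 to 28078662, +). All are protein-coding and their values cover whole genes. Some values are less certain because sequence is shared: 31.9% of the 31-base words of Fdft1, 27.9% of Fdps, 27.1% of Idi1 and 13.1% of Hmgcs1 occur in other genes, for Fdps mainly the predicted gene Gm43738 and for Idi1 Gm13502. For Lss, Sqle, Cyp51 and Insig1 the share was at most 3.88%.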

How the data were processed

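The table holds expected counts by gene symbol as deposited by the authors, who used RSEM 1.3.3 and STAR 2.7.3a on GRCm38, after FastQC 0.11.9 and Trim Galore 0.6.5, per the submitters' processing notes. Settings, annotation and the strand setting of the counting are not given in the sources used here, though the library kit keeps strand, per the labels' protocols. Of the values 92% were whole, and all were rounded to whole numbers before the tests. Each of 86 columns was matched to its sample by name.

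Genes were kept with filterByExpr, libraries were scaled with TMM, and each muscle had 1 edgeR (4.0.16, R 4.3.3) quasi-likelihood fit over its 9 groups, with 14484 genes in GA and 14811 in SO. The muscles were compared in 1 fit over all libraries with 15327 genes. Log2 CPM for likeness and display used a prior count of 2. Benjamini-Hochberg adjusted p under 0.05 was the threshold. P values test a difference between groups against the spread between mice within groups, which was estimated over all groups of a fit. The test of DEX against NT in each muscle was run on simulated counts with known changes. The simulation left out the 3 libraries that stood apart, so it does not show how the main fits, which keep them, perform. Alternatives were no filter on low counts, DESeq2 1.42.0 or only its size factors, only the groups compared, the mouse number or animal as a block, leaving out each library, leaving out the 3 libraries that stood apart, and a set term. The fit without SO DEX mice 1 and 3 was added after the data were seen. The members, the gene lists and the tests were chosen with earlier results of these data known. Genes named are the 8 members, at most 3 passing genes per list and direction with a mean of 5 CPM, Srebf1 and Srebf2, and the 6 genes most alike per muscle. Mice with the same number in DEX and NT did not deviate together (correlations of -0.0924 to 0.0304 in GA and -0.166 to 0.0327 in SO). The labels number the mice alike in both muscles, which may mean the same animals. SO and GA libraries of the same group and number correlated at -0.709 to 0.563 over 43 pairs, 10 of them above 0.1. This cannot settle whether the animals are the same, since pairs of unlike number were not compared. The main fits took SO and GA libraries as independent, with the animal as a block only as an alternative. Items withheld for evaluation are not reported here. Positions and shared words are from GENCODE vM21, promoters from RefSeq. Summaries used pandas 2.3.3 and numpy 2.4.6 and plots matplotlib 3.10.9, in Python 3.11.15.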

Additional observations from a re-analysis of the deposited data

Results flagged for a closer look

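Within each group of 4 or 5 mice the highest and lowest library was set against the rest of its group, for 144 pairs of gene and group, and 6 values stood far from the others, which is no more than the roughly 1 in 20 groups that chance gives. Fdft1 stood apart in 4 of them: at 15.7 CPM in GA JGT02 100 mg/kg mouse 1 and 14.2 CPM in SO JGT02 100 mg/kg mouse 5, both libraries that stood apart as a whole, and at 37.2 CPM in SO DEX mouse 4 and 80.8 CPM in SO NT mouse 4. Sqle was high, at 6.72 CPM, in GA JGT02 100 mg/kg mouse 1. Hmgcs1 was high, at 32.5 CPM, in SO RSV mouse 2. The change of Sqle with DEX differed between SO and GA by log2 1.36 in the test of the difference itself.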

How the results depend on the processing

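Counts are of the 8 members passing. Without a filter on low counts there were 0 in GA DEX against NT, SO JGT02 400 mg/kg, SO JGT04 100 mg/kg and the SO minus GA change. Without the 3 libraries that stood apart there were 4 in the 8 DEX-injected GA groups, 1 each in GA JGT03 400 mg/kg and JGT04 400 mg/kg, 2, 1, 2, 4 and 1 in SO JGT02 100, JGT03 100, JGT03 400, JGT04 100 and JGT04 400 mg/kg, 4 in the 6 SO extract groups and 2 in the SO minus GA change. With DESeq2 there were 1 in GA JGT03 400 mg/kg, 2 in SO JGT04 100 mg/kg and 1 each in SO JGT04 400 mg/kg and the 6 SO extract groups, and with its size factors 0 in SO JGT04 100 mg/kg. Fits of only the groups compared gave 1 each in GA JGT03 400, GA JGT04 400 and SO JGT04 400 mg/kg and 0 in SO JGT02 400 mg/kg. With the set term there were 2 in the 8 SO groups and 0 in SO JGT02 400, JGT04 100, RSV and both direct comparisons of SO with GA, where Hmgcs1 (0.20) and Fdps (0.041) reversed in DEX-injected mice. Without SO DEX mice 1 and 3 there were 1 in SO DEX against NT, 1 in RSV, and 0 in JGT02 400, JGT04 100 mg/kg and the SO minus GA change. With the mouse number as a replicate block 1 passed in the 6 SO extract groups, Fdft1 (0.53, adjusted p = 0.0455), and with the animal as a replicate block 0 in the SO minus GA change. The block changed no other count by more than 1.5 times.

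Leaving out 1 library gave 0 to 1 in GA DEX against NT, 1 to 4 in the 8 GA groups, 3 to 4 in SO DEX against NT, 3 to 5 in the 8 SO groups, 0 to 2 in SO JGT02 100, 0 to 1 in JGT02 400, 0 to 3 in JGT04 100 mg/kg, 1 to 4 in RSV, 0 to 3 in the 6 SO extract groups, 2 to 5 and 4 to 5 between SO and GA in NT and DEX-injected mice, and 0 to 1 in the SO minus GA change. All other comparisons gave 0. The causes were not tested. Over all genes, DEX against NT called 1214 in GA and 3079 in SO, against 879 and 2221 without the filter, 3811 and 6353 without the 3 libraries, 2720 and 4129 with only the groups compared, and 1953 in SO without DEX mice 1 and 3. RSV against DEX in SO called 1876 genes, against 3 with the set term and 5390 without the 3 libraries. The SO minus GA change called 1282, against 733 with the animal as a block. Depth limits Sqle most, with a median of 67 counts in GA and 57 in SO libraries.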
